A study of Mus musculus with 9 samples.

Results

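The nuclear genes for the subunits of the 5 respiratory chain complexes were followed through the differentiation of 3T3-L1 preadipocytes into adipocytes. Members were taken by symbol: names made of Ndufa, Ndufb, Ndufc, Ndufs or Ndufv and a number for complex I, Sdha, Sdhb, Sdhc and Sdhd for complex II, names beginning with Uqcr together with Cyc1 for complex III, Cox4 to Cox8 names with a further letter for complex IV, and names beginning with Atp5 for complex V. This gave 84 of the 19094 genes in the data, of which 37 belonged to complex I, 4 to complex II, 9 to complex III, 17 to complex IV and 17 to complex V. The symbol rule also took in genes that are not plain subunits of their complex. Cox7a2l encodes a factor that holds complexes III and IV together, Ndufa4 is now counted with complex IV and Ndufa4l2 is its paralogue, and Atp5sl encodes an assembly factor of complex I. Atp5s encodes coupling factor B, which is not among the core parts of ATP synthase. The assembly factors named Ndufaf were left out, and the subunits encoded by mitochondrial DNA were not analysed here.

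The respiratory chain sits in the inner mitochondrial membrane. Complex I (NADH dehydrogenase) and complex II (succinate dehydrogenase) pass electrons to coenzyme Q, complex III (cytochrome bc1) passes them on to cytochrome c, and complex IV (cytochrome c oxidase) hands them to oxygen. The proton gradient built on the way drives complex V, the ATP synthase. Several subunits of complex IV exist as a common form and a form known mainly from heart and skeletal muscle or another tissue, and adipocytes are known to build up mitochondria as they differentiate.

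3T3-L1 is an established line of mouse preadipocytes, so all samples come from a single line grown in a dish. Day 0 cells were confluent preadipocytes in complete medium, sampled as the differentiation cocktail (dexamethasone, IBMX and insulin) was added. Day 4 cells had gone from the cocktail to maintenance medium with insulin, and day 8 cells had stayed in maintenance medium until mature. Each day had 3 samples, RNA was described as pooled at each stage, and no source used here says that the samples came from separate cultures, so p-values measure only the spread between these samples, which may be technical. The sequencing totals were 18216114 to 20452144 expected counts per sample. Of the 84 members, 82 were listed in each of the 9 samples, and 81 had enough counts to be tested together with 13154 genes in all. The members untested for low counts were Cox4i2, Cox6b2 and Cox7b2.

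The extraction note in the labels names DRG, which it does not spell out, whereas the other labels name 3T3-L1 cells, so marker genes were read first, those of ganglion cells among them. The summed level of 10 adipocyte markers was 33.6, 36.3 and 33.9 FPKM (fragments scaled to transcript length and library size) in the day 0 samples. It was 4927, 6014 and 7180 FPKM at day 4 and 7466, 8008 and 8016 FPKM at day 8. Fabp4, the fatty acid binding protein of adipocytes, led the sum at days 4 and 8, and Pparg at day 0. The days did not overlap, and at day 4 replicate 1 was the lowest and replicate 3 the highest. All 10 adipocyte markers were upregulated above 2-fold in the early phase, where 9.77% of all tested genes were.

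The markers of other cells stayed low in every sample. The 9 markers of sensory neurons and Schwann cells summed to between 2.04 and 2.76 FPKM in each sample, with Scn10a at or near 0. The 10 listed muscle markers summed to 2.23 to 4.21 FPKM, led by day mean by Tnnt3 at day 0 and by Acta1 at days 4 and 8. Myog and Ckm had at most 0.03 FPKM in any sample, and Myod1 and Myh2 had no value in the files, which leave out genes at 0. Acta1, the actin of skeletal muscle, had means of 0.73, 0.65 and 1.40 FPKM at days 0, 4 and 8, with a late log2 fold change of 1.16 (SE 0.31, edgeR adjusted p = 0.00618). Mb, the oxygen-binding myoglobin, was too low to be tested, with means of 0.18, 0.10 and 0.50 FPKM, and each day 8 sample lay above all day 4 samples. The 7 brown or beige markers summed to 2.87 to 5.13 FPKM, most of it Ppargc1a, while Ucp1, the uncoupling protein of brown fat, reached a day mean of only 0.04 FPKM. Elovl3, a fatty acid elongase of the same list, had no entry in the day 0 samples, taken as 0, and had 0.40, 0.47 and 0.41 FPKM at day 4 (edgeR adjusted p = 4.07e-06) and a mean of 0.31 FPKM at day 8. Macrophage markers summed to 1.94 to 4.02 FPKM and endothelial markers to 0.18 to 0.50 FPKM. By day mean, Lyz2 led the macrophage markers at day 0 and Cd68 at days 4 and 8. Among the endothelial markers, Cdh5 had the highest mean at day 0 and Pecam1 at days 4 and 8. The 7 preadipocyte or fibroblast markers, led by Col1a1, summed to means of 4703, 2821 and 4070 FPKM at days 0, 4 and 8. Col1a1 had means of 1540, 1299 and 2270 FPKM, whereas Dlk1, an inhibitor of adipocyte differentiation, had 828, 181 and 415 FPKM, Fn1, the matrix protein fibronectin, had 1145, 191 and 309 FPKM and Pdgfra had 59.6, 102 and 65.7 FPKM. Fewer cells of a type and less RNA per cell cannot be told apart in such bulk samples.

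At day 0 the members together took 0.692% ± 0.0203 (SD, n = 3) of the counts in a sample. They took 1.13% ± 0.0746 of them at day 4 and 1.22% ± 0.0154 at day 8. All 5 complexes were higher at day 4 than at day 0 in each sample. Complex I summed to 2658, 2827 and 2760 FPKM at day 0, to 3967, 4258 and 4488 FPKM at day 4 and to 4503, 4401 and 4578 FPKM at day 8. Day 0 lay below all later samples, while day 4 replicate 3 overlapped with day 8.

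Complex III summed to 627, 683 and 677 FPKM at day 0, to 1195, 1329 and 1425 FPKM at day 4 and to 1464, 1486 and 1511 FPKM at day 8. Here the 3 days did not overlap, and the day 8 mean was 2.24 times the day 0 mean. The same ratio of day 8 to day 0 was 1.64 for complex I, 1.84 for complex II, 1.89 for complex IV and 1.67 for complex V. By day 4 the ratio had already reached 1.54 for complex I, 1.59 for complex II, 1.99 for complex III, 1.70 for complex IV and 1.60 for complex V. In the plot of summed levels, the step to day 4 is the taller of the steps in each complex.

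**Figure D1:**
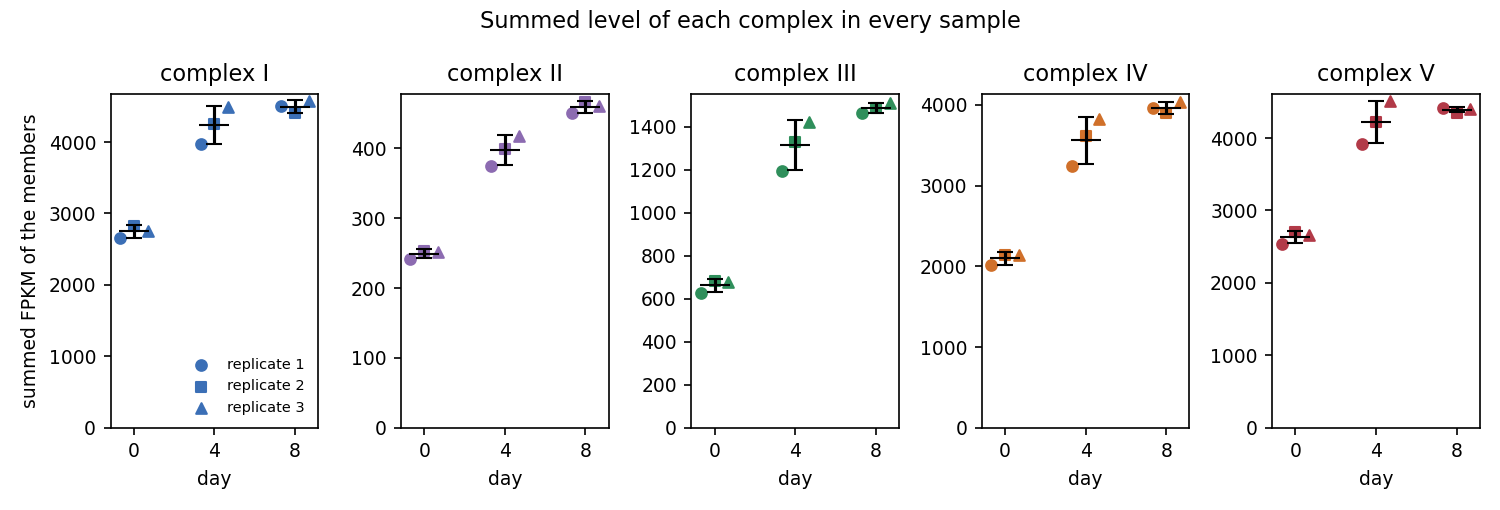
Summed FPKM (vertical axes, each starting at 0) of the members of each complex against day; symbols are the replicates and black bars the mean ± SD (n = 3). Day 0 lies lowest in all 5 panels, and day 4 replicate 1 is the lowest day 4 sample in each, at 3967 FPKM for complex I and 1195 FPKM for complex III.

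Day 4 replicate 1 was the lowest and replicate 3 the highest of the day 4 samples in each complex, and the adipocyte markers above stood in the same order. For complex V the day 4 samples had 3923, 4225 and 4514 FPKM, so that the spread at day 4 (SD 295 FPKM) was wider than at day 0 (80.3 FPKM) or day 8 (34.2 FPKM). This spread bears on every comparison with day 4. Without day 4 replicate 1 the median early log2 fold change of all members was 0.82, and without replicate 3 it was 0.75. Late values without each of these samples are given with the late phase. What caused the spread was not tested.

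Day 4 was compared with day 0 to see how the chain changed in the early phase. All 5 complexes were upregulated for nearly every member. Of the 81 tested members, 76 were higher and 1 was lower by edgeR adjusted p under 0.05, while 35.5% of all tested genes were higher and 33.7% lower by the same rule. Changes are given as log2 fold changes unless a fold is named. The median member rose 1.71-fold, a log2 fold change of 0.77, against 0.02 over all genes. Above 2-fold, 14 members were higher, where 9.77% of all genes were, and 1 was lower, where 7.98% were. The 4 members that did not pass in either direction were Ndufa4l2 (0.15), Cox7a2l (0.10), Atp5s (0.26) and Atp5sl (-0.11 on the log2 scale), all outside a stricter list of plain subunits. In that list of 79 genes, 75 of 76 tested members were higher and 1 was lower. In normalised counts (CPM on TMM library sizes), 76 members had each day 4 sample above all day 0 samples, as 37.0% of all genes did, and 2 had each below, as 35.4% did.

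Complex III, with a median log2 fold change of 1.02, was the complex with the most members above 2-fold in the early phase, at 5 of 9, beside 9.77% of all tested genes. The medians were 0.75 for complex I (3 of 37 above 2-fold), 0.72 for complex II (1 of 4), 0.86 for complex IV (3 of 14 tested) and 0.68 for complex V (2 of 17). These medians describe the members and are not tested against each other. Of the 10 common subunits of complex IV, 1 was above 2-fold early, near the 9.77% of all genes. The other members of complex IV above 2-fold were Cox7a1 and Cox8b, which had few or no counts at day 0. The range within each complex was wide beside the gaps between medians, as the plot of changes shows.

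**Figure D2:**
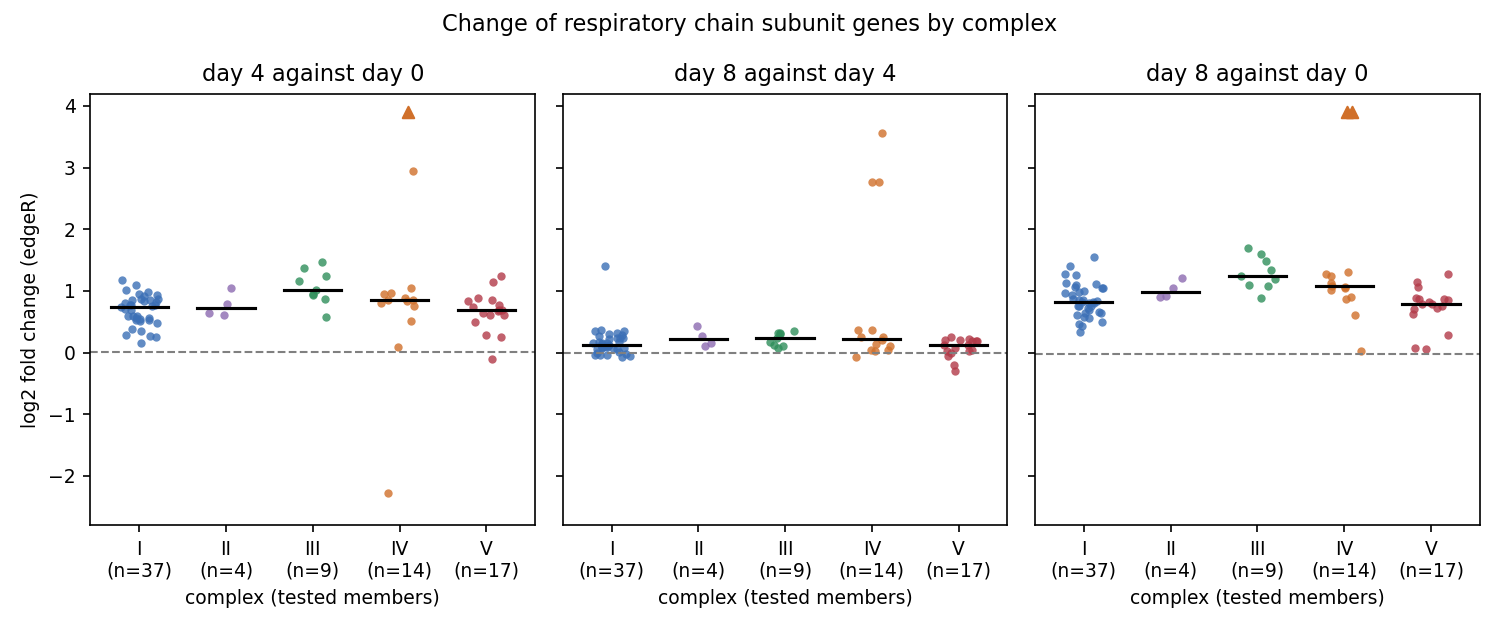
The log2 fold change (edgeR, vertical axis) of each tested member by complex in the early phase (day 4 against day 0), the late phase (day 8 against day 4) and the whole process (day 8 against day 0); bars are medians and the dashed line is the median of all 13154 genes. Triangles mark members beyond the axis, Cox8b in the early phase and Cox8b and Cox7a1 in the whole process, and the point at -2.28 in the early phase is Cox6a2.

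Complex III held the steepest rises among the common subunits. Uqcrfs1, the Rieske iron-sulphur protein of complex III, had 31.5, 34.5 and 32.9 FPKM at day 0, 79.4, 86.3 and 95.9 FPKM at day 4 and 98.8, 100.4 and 97.8 FPKM at day 8. Each day lay above the day before without overlap. Its log2 fold change was 1.47 (SE 0.06, edgeR adjusted p = 4.49e-12) in the early phase and 0.23 (SE 0.06, adjusted p = 0.00431) in the late phase.

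Cyc1, the cytochrome c1 that hands electrons to cytochrome c, had means ± SD of 65.7 ± 4.94, 147 ± 13.0 and 183 ± 6.49 FPKM (n = 3) at days 0, 4 and 8. From day 0 to day 8 it changed by 1.59 (SE 0.07, edgeR adjusted p = 3.94e-12). Uqcr11, a small subunit and the most abundant of the complex at days 4 and 8, had 88.5, 102 and 111 FPKM at day 0, 224, 252 and 271 FPKM at day 4 and 268, 256 and 257 FPKM at day 8. Days 4 and 8 overlapped, and the late change of 0.11 (edgeR adjusted p = 0.235) did not pass. Uqcrc1, a core subunit, rose by 0.93 early and by 1.10 in all.

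Uqcrb, the ubiquinone-binding subunit, had the smallest whole-process change of complex III at 0.88 (SE 0.05, edgeR adjusted p = 5.27e-10). Of the 50-base stretches of its transcripts, 43.2% also occur in other genes, all of them annotated pseudogenes, so its value is uncertain where the authors' counting split such reads. Among all 84 members, 13 shared over 20% of their stretches with other genes, and in 8 of these under 5% of the stretches occurred in genes other than annotated pseudogenes. The stretches shared by Atp5g2 (38.3%) and Cox5b (21.8%) lay in genes that are not annotated as pseudogenes. In addition, 26 members had exon bases that overlap a gene on the other strand. The strand setting of the counting is not given in the sources used here, so reads in such bases cannot be told apart.

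In complex I, 36 of 37 members were higher early, where 35.5% of all tested genes were. Ndufv3, a subunit of the NADH-binding module, rose the most, with 105, 106 and 111 FPKM at day 0 and 222, 228 and 241 FPKM at day 4, and with no overlap. Its early log2 fold change was 1.18 (SE 0.05, edgeR adjusted p = 1.33e-11). The 7 core subunits, which carry the iron-sulphur clusters and the flavin, had a median early change of 0.83. Ndufv1, the flavin-binding core subunit, had means ± SD of 46.0 ± 0.909, 82.9 ± 4.92 and 83.7 ± 2.41 FPKM (n = 3) at days 0, 4 and 8. Ndufs1, the largest core subunit, rose by 0.86. The 10 accessory Ndufb genes, of the membrane arm, had a median of 0.79 and the 12 Ndufa genes, without Ndufa4 and its paralogue, 0.55.

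Ndufa4, listed with complex I by its name, was the most abundant of these 37 genes, with means ± SD of 297 ± 19.9, 411 ± 21.9 and 386 ± 5.84 FPKM (n = 3) at days 0, 4 and 8. It rose early by 0.53 (SE 0.05, edgeR adjusted p = 1.81e-07). Ndufa13 had the smallest whole-process change of complex I, 0.34 (SE 0.05, edgeR adjusted p = 1.39e-05). Of its 1251 exon bases, 375 overlap Tssk6 on the other strand.

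Complex II, which also works in the citric acid cycle, rose in all 4 genes in the early phase, where 35.5% of all tested genes did. Sdhd, a membrane anchor, had 38.6, 39.4 and 40.4 FPKM at day 0, 73.5, 74.9 and 84.4 FPKM at day 4 and 80.8, 85.1 and 86.5 FPKM at day 8. Both later days lay above day 0 and overlapped with each other. Its early log2 fold change was 1.04 (SE 0.06, edgeR adjusted p = 1.22e-10). Sdhb, the iron-sulphur subunit, rose the least early (0.62) and the most late (0.42, SE 0.05, edgeR adjusted p = 3.25e-06). Sdha, the flavoprotein that oxidises succinate, rose by 0.79 early and by 0.90 over the whole process, and Sdhc, the other anchor, was the most abundant at 153 ± 0.626 FPKM (SD, n = 3) at day 8.

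In complex V, 15 of 17 members rose in the early phase, where 35.5% of all tested genes did, and the remaining 2 were Atp5s and Atp5sl. Atp5g3 is one of the genes, with Atp5g1 and Atp5g2, for the c subunit that forms the rotor ring. It had 164, 176 and 171 FPKM at day 0, 334, 383 and 429 FPKM at day 4 and 390, 387 and 369 FPKM at day 8. The later days overlapped, and its log2 fold change was 1.23 (SE 0.07, edgeR adjusted p = 1.37e-10) early and 0.04 (adjusted p = 0.617) late. Atp5g2 rose by only 0.29 early and Atp5g1 by 0.73. Atp5g1 made up 19.4%, 20.1% and 20.9% of the summed FPKM of the 3 genes at days 0, 4 and 8, a small change whose SD was at most 0.380 percentage points within a day.

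Atp5b, the catalytic beta subunit and the most abundant member of complex V, had means ± SD of 374 ± 10.8, 660 ± 28.9 and 760 ± 18.8 FPKM (n = 3) at days 0, 4 and 8. Its late change of 0.25 (SE 0.05, edgeR adjusted p = 5.78e-04) was the highest of the complex. Atp5a1, the alpha subunit, rose by 0.77 early and then had a late change of 0.02 that did not pass. Atp5k, subunit e, which lies where ATP synthases pair up, had 77.5, 88.4 and 100.2 FPKM at day 0, 173, 173 and 217 FPKM at day 4 and 149, 147 and 146 FPKM at day 8. Day 8 lay below all of day 4 and above all of day 0. Its late log2 fold change was -0.30 (SE 0.09, edgeR adjusted p = 0.0105), the one member lower in that phase, and -0.19 (adjusted p = 0.0550) without day 4 replicate 3.

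Day 8 was compared with day 4 for the late phase, which shares the day 4 samples with the early phase. Changes were small here: the median member had a log2 fold change of 0.16, a 1.12-fold rise, against -0.01 over all genes. By edgeR adjusted p, 39 of 81 members were higher and 1 was lower, where 22.5% of all tested genes were higher and 22.7% lower. The higher members were 15 of 37 in complex I, 3 of 4 in complex II, 7 of 9 in complex III, 8 of 14 in complex IV and 6 of 17 in complex V. The medians by complex were 0.12, 0.22, 0.23, 0.23 and 0.12 in that order. Each day 8 sample lay above all day 4 samples in 41 members, as in 27.2% of all genes, and below them in 1, as in 27.3%. Without day 4 replicate 1, which had the lowest levels at day 4, 31 members were higher and the median of all members was 0.09, with 0.07 for both complexes I and V. Without day 4 replicate 3, 50 were higher and these 2 complexes had medians of 0.19 and 0.18. With library size alone as the scaling, complexes I and V both had 0.07, while the median of all genes also moved, to -0.05.

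In the late phase, 4 of 81 members (4.94%) were higher above 2-fold, a share near the 4.24% of all genes. By edgeR or DESeq2, 0 were lower, where 2.81% of all genes were. At an unadjusted edgeR p under 0.05 with no fold, Atp5k alone was lower. The 4 members higher above 2-fold were Cox6a2, Cox7a1, Cox8b and Ndufa4l2. The difference between the late and the early step was tested for each gene as its own contrast. It was lower, meaning a smaller rise late than early, for 69 of 81 members, where 30.4% of all genes were lower. These 69 include Cox8b, whose value has no meaning as a fold since it had no count at day 0. The difference was higher for Cox6a2 and Ndufa4l2 alone, where 26.2% of all genes were higher. The 10 members that did not pass included Sdhb (-0.19), Cox7a1 (-0.18) and Cox7a2l (-0.17).

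Over the whole process, from day 0 to day 8, 78 of the 81 members were higher by edgeR adjusted p and 0 were lower, where 34.8% of all tested genes were higher and 36.2% lower. By DESeq2 and at an unadjusted edgeR p under 0.05, 0 were lower too. In normalised counts, 78 members had each day 8 sample above all day 0 samples, as 37.0% of all genes did, and none had each below, as 38.6% did. Above 2-fold, 34 members were higher, where 10.3% of all genes were, and 0 were lower, where 7.70% were. The median was 0.89 against -0.02 over all genes. Above 2-fold were 11 of 37 members in complex I (median 0.83), 2 of 4 in complex II (0.98), 8 of 9 in complex III (1.23), 10 of 14 tested in complex IV (1.07) and 3 of 17 in complex V (0.79). The exception in complex III was Uqcrb. With library size alone as the scaling, 21 members in place of 34 passed 2-fold, since all genes then shifted to a median of -0.13.

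The 3 members that did not pass over the whole process were Cox7a2l, Atp5s and Atp5sl. Cox7a2l had 178, 174 and 194 FPKM at day 0, 177, 191 and 190 FPKM at day 4 and 172, 165 and 177 FPKM at day 8. The 3 days overlapped, with a whole-process log2 fold change of 0.02 (SE 0.05, edgeR adjusted p = 0.699). Atp5s changed by 0.06 (SE 0.16) at about 3 FPKM and Atp5sl by 0.08 (SE 0.08) at about 10 FPKM.

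Within complex IV, all 10 common subunits were higher by edgeR adjusted p early and over the whole process, and 5 of 10 late, beside 35.5%, 34.8% and 22.5% of all tested genes. They had median log2 fold changes of 0.86, 1.06 and 0.17 in that order. Over the whole process 7 of 10 were higher above 2-fold, where 10.3% of all tested genes were. Cox6a1 had 325, 345 and 347 FPKM at day 0, 606, 687 and 712 FPKM at day 4 and 762, 759 and 797 FPKM at day 8, with no overlap between days. Its whole-process change was 1.30 (SE 0.06, edgeR adjusted p = 8.81e-12). Cox8a, the common form of the smallest subunit, rose by 1.25, Cox7a2 by 1.13, Cox6b1 by 1.08, Cox7b by 1.02 and Cox4i1, the regulatory subunit that binds ATP, by 0.87. Cox5b rose by 1.07 and Cox5a by 0.61, the smallest change among the common forms.

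The tissue-type forms were far lower than the common forms, and 3 of the 6 had enough counts to be tested. Cox7a1, the heart and skeletal muscle form of subunit VIIa, had 0.27, 0.15 and 0.27 FPKM at day 0, 1.78, 1.76 and 1.96 FPKM at day 4 and 10.8, 13.9 and 11.8 FPKM at day 8. The days did not overlap, and the day 0 level rested on 5 counts over 3 samples. The ratio of summed counts, scaled to TMM library sizes, was 8.21 (95% exact interval 3.24 to 26.7) from day 0 to day 4, and 6.86 (4.91 to 9.83) from day 4 to day 8. These intervals cover counting error only. The log2 fold change in the late phase was 2.77 (SE 0.21, edgeR adjusted p = 3.05e-08), beside 0.37 (SE 0.08, adjusted p = 0.00185) for Cox7a2, the common form.

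Of the summed FPKM of Cox7a1 and Cox7a2, Cox7a1 thus made up 0.461% ± 0.161, 2.22% ± 0.252 and 10.7% ± 1.37 (SD, n = 3) at days 0, 4 and 8. An exact permutation test of the share over the 9 samples gave p = 0.00357, the smallest it allows, and 0.00714 after adjustment over 8 shares. Cox7a1 held the highest share of any tissue-type form at day 8. The listed muscle markers Acta1 and Mb were also higher at day 8 than at day 4, at 1.40 and 0.50 FPKM, whereas Tnni2, a troponin subunit, had means of 0.52 and 0.20 FPKM at these days, Tnnt3 had 0.55 and 0.66 FPKM with overlapping samples, and Myog and Ckm had no entry at either. Of the brown or beige markers, Ppargc1a had means of 2.34 and 4.48 FPKM at days 4 and 8, and Elovl3 had 0.43 and 0.31 FPKM. Ucp1, Cidea, Dio2, Prdm16 and Zic1 had means of at most 0.15 FPKM at both days. The part of muscle-type cells, or of brown or beige adipocytes, in the muscle forms was not tested.

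Cox8b, the heart and skeletal muscle form of subunit VIII, had no entry in the 3 day 0 samples and was taken as 0 there. It had 1.83, 1.53 and 2.16 FPKM at day 4 and 13.2, 12.8 and 10.7 FPKM at day 8, so the 3 days did not overlap. Against a floor of 3 counts per library at day 0, it was at least 4.45-fold higher at day 4 and at least 30.6-fold higher at day 8. From day 4 to day 8 its counts rose 6.88-fold (95% exact interval 4.90 to 9.90), with a log2 fold change of 2.77 (SE 0.23, edgeR adjusted p = 2.31e-07). Its share of the summed FPKM of Cox8a and Cox8b was 0%, 0.297% ± 0.0474 and 1.56% ± 0.195 at days 0, 4 and 8 (exact permutation p = 0.00357, adjusted p = 0.00714).

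Cox6a2, the heart and skeletal muscle form of subunit VIa, went down and then up. It had 6.23, 6.40 and 6.90 FPKM at day 0, 0.99, 1.58 and 1.24 FPKM at day 4 and 15.0, 13.0 and 15.9 FPKM at day 8. The 3 days did not overlap. Its log2 fold change was -2.28 (SE 0.20, edgeR adjusted p = 2.88e-08) in the early phase, where it was the one member lower, 3.56 (SE 0.17, adjusted p = 1.58e-10) in the late phase and 1.28 (SE 0.13, adjusted p = 2.81e-07) over the whole process. The difference of the steps was 5.84 (SE 0.34, edgeR adjusted p = 4.78e-10).

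The share of Cox6a2 in the summed FPKM of Cox6a1 and Cox6a2 was 1.88% ± 0.0629, 0.189% ± 0.0356 and 1.85% ± 0.150 (SD, n = 3) at days 0, 4 and 8. By the exact permutation test p was 0.0321, and 0.0514 after adjustment over 8 shares. Of the exon bases of Cox6a2, 10.3% overlap Itgad, the integrin alpha D gene, on the other strand. Itgad had 7 counts over the day 0 samples, 14, 15 and 13.0 counts at day 4 and 135, 186 and 157 counts at day 8, while Cox6a2 had 83, 76 and 92 counts at day 0, 13, 21 and 15.9 at day 4 and 197, 171 and 206 at day 8. Both genes were higher at day 8 than at day 4, whereas at day 0 only Cox6a2 was well above its day 4 level, and the part of shared reads was not tested.

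The other tissue-type forms stayed under 1 FPKM in every sample. Cox4i2, a lung form known from responses to low oxygen, had 6, 17 and 15 counts over the samples of days 0, 4 and 8, Cox6b2, a testis form, had 2, 1 and 1, and Cox7b2 had 10, 5 and 10. The exact permutation test of their shares gave adjusted p-values of 0.824, 1 and 0.200. For Cox4i2 the scaled ratio of counts from day 0 to day 4 was 2.91, with a 95% exact interval for counting error of 1.09 to 9.01, while its share in single samples overlapped between the days. The intervals of its other ratios, and of all ratios for Cox6b2 and Cox7b2, included 1. The low forms and their common partners are set side by side in the plot of isoform pairs.

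**Figure D3:**
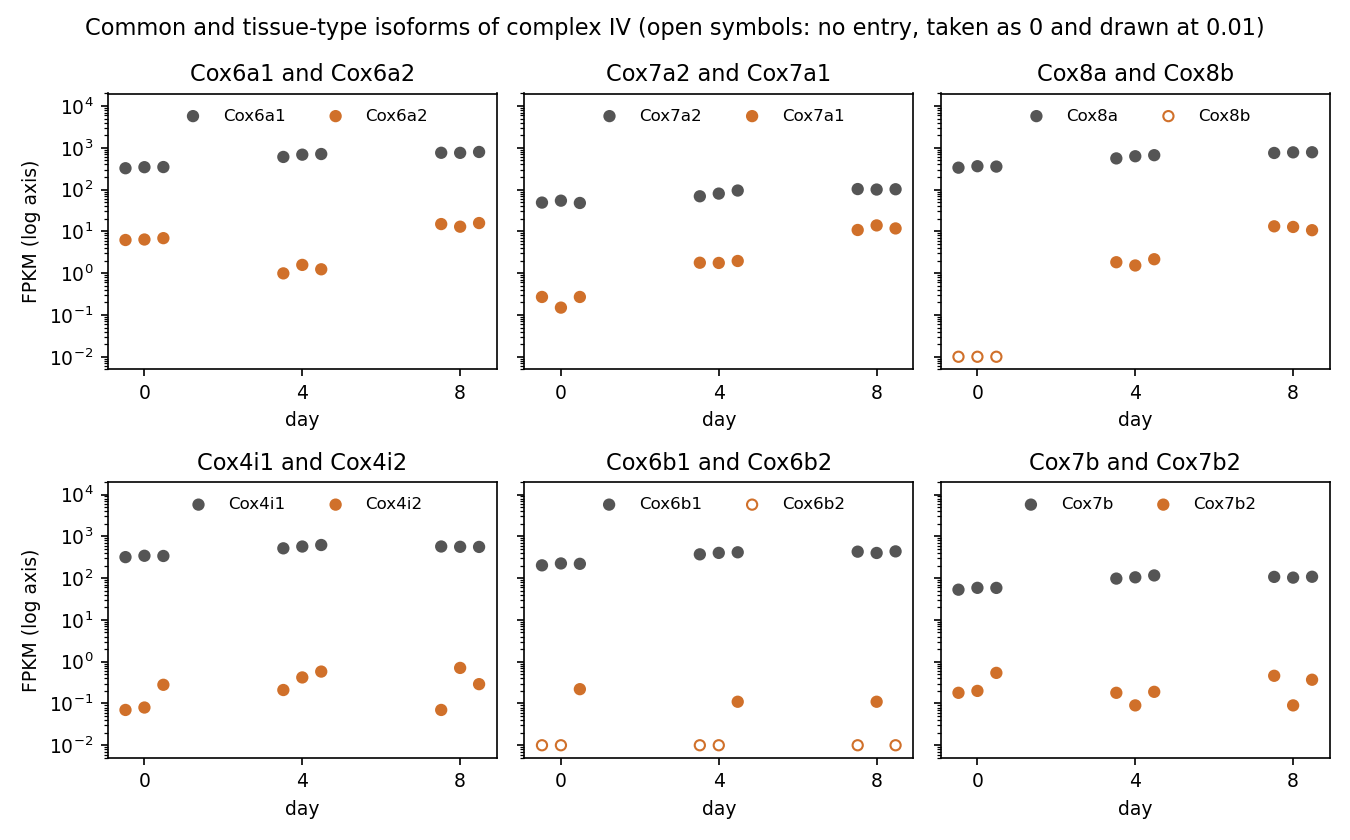
FPKM (log axis) of the common form (grey) and the tissue-type form (orange) of 6 complex IV subunits in each sample by day; open symbols are samples with no entry, taken as 0 and drawn at 0.01. Cox7a1 and Cox8b climb to 10.7 FPKM or more at day 8, Cox6a2 dips at day 4, and the common forms stay above all tissue-type forms in every panel.

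Ndufa4l2, the paralogue of Ndufa4 known as a target of the low-oxygen response, had 2.03, 1.71 and 1.57 FPKM at day 0, 2.0, 1.68 and 1.95 FPKM at day 4 and 5.30, 4.46 and 4.63 FPKM at day 8. Days 0 and 4 overlapped, and day 8 lay above both. Its log2 fold change was 0.15 (SE 0.19, edgeR adjusted p = 0.514) early and 1.40 (SE 0.17, adjusted p = 4.65e-06) late. Of its exon bases, 32 overlap Shmt2, a mitochondrial serine hydroxymethyltransferase gene, on the other strand. Shmt2 had 4136, 4174 and 3835 counts at day 0, 2014, 2115 and 1785 at day 4 and 2411, 2280 and 2306 at day 8, while Ndufa4l2 had 30 to 103 counts in any sample, and the part of shared reads was not tested. The share of Ndufa4l2 in the summed FPKM of Ndufa4 and Ndufa4l2 was 0.594%, 0.456% and 1.23% (exact permutation p = 0.00357, adjusted p = 0.00714). The same values were found for Atp5g1 above.

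Promoters were read for the pairs Cox8a with Cox8b and Cox7a2 with Cox7a1, in which the tissue-type form rose far more than the common form, and for Uqcr11 and Atp5g3, which rose above 2-fold early in complexes III and V. Each stretch holds 250 bases before the start site of the gene and 50 after it, 5′ to 3′ on the strand of the gene, from RefSeq on GRCm38.p6. Capitals mark letters searched on both strands: GCATGCG (NRF1), CCGGAAG (GABP and other ETS factors), AAGGTCA (ERR and other nuclear receptors) and AAGATGG (YY1). Positions are counted from the start site as 0. The windows are Cox8a on chr19:7217567-7217866 (minus strand), Cox8b on chr7:140900397-140900696 (minus), Cox7a2 on chr9:79759804-79760103 (minus), Cox7a1 on chr7:30183921-30184220 (plus), Uqcr11 on chr10:80406772-80407071 (minus) and Atp5g3 on chr2:73911277-73911576 (minus).
Cox8a: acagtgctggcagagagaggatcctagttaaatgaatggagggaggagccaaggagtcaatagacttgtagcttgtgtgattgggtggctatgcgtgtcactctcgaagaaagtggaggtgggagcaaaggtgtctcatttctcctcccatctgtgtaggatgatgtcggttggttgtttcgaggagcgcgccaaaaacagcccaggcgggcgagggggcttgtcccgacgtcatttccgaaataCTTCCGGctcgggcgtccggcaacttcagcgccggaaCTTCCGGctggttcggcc
Cox8b: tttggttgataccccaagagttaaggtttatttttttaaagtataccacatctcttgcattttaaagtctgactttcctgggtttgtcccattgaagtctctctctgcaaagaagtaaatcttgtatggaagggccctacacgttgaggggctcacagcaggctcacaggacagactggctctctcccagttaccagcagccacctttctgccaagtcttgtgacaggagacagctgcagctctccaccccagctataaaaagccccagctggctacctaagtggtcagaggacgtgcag
Cox7a2: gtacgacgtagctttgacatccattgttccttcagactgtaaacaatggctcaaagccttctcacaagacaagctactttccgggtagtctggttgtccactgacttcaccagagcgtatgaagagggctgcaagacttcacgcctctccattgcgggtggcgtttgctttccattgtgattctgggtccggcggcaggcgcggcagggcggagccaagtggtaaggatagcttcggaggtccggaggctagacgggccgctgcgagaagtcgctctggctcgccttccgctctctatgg
Cox7a1: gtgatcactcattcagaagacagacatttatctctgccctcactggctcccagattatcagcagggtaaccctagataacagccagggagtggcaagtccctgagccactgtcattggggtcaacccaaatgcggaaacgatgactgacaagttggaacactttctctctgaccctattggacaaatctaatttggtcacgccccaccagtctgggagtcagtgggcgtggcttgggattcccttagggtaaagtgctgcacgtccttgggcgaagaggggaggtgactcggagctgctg
Uqcr11: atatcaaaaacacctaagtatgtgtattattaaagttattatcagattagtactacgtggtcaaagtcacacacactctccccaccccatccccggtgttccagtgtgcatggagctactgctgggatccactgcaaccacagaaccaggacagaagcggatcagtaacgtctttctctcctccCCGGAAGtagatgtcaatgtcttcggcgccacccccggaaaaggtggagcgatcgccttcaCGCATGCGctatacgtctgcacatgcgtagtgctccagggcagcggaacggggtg
Atp5g3: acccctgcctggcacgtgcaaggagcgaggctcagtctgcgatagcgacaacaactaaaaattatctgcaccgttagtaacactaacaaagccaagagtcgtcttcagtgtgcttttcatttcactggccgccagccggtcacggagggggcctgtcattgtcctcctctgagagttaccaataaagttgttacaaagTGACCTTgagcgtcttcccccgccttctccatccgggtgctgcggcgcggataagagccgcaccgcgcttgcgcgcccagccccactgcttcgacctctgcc

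In these windows Cox8a held CCGGAAG on the other strand at positions -5 and 32, and Cox8b held none of the 4 motifs. Neither did Cox7a2 nor Cox7a1. Uqcr11 held CCGGAAG at -66 and, at -5 and -4, a GCATGCG that is read on both strands since its letters overlap with their own complement. Atp5g3 held AAGGTCA on the other strand at -52. The windows of Ndufv3 and Uqcrfs1, the largest early rises of complexes I and III, are not shown and held none of the 4 motifs. That of Sdhd, the largest early rise of complex II, held CCGGAAG at -46 and AAGGTCA at 36, both on the other strand.

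Of the 84 members, 69 had an entry in the promoter table. GCATGCG was present in 11 of these 69 genes (15.9%), against 7.18% of the 10416 tested genes with an entry and 4.01% of all 27025 genes in the table. CCGGAAG was present in 16 members (23.2%), against 19.8% of tested genes and 9.93% of all. AAGGTCA was present in 8 members (11.6%), against 3.74% and 5.38%, and AAGATGG in 12 (17.4%), against 8.36% and 7.28%. No member promoter held overlapping matches of different motifs. A match of letters is a description and not a binding site, and the shares were not tested.

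Genes around the chain were read from fixed lists of assembly factors, electron carriers, regulators and membrane carriers. Of 99 listed genes found, 95 were tested, and over the whole process 72 were higher and 6 lower by edgeR adjusted p, where 34.8% of all tested genes were higher and 36.2% lower. Above 2-fold, 18 were higher, where 10.3% of all genes were. The median log2 fold change was 0.50, below that of the subunits (0.89) and above that of all genes (-0.02). The assembly factors had lower medians than the subunits of the same complex in complexes I (0.49 against 0.83), II (0.68 against 0.98), III (0.43 against 1.23) and IV (0.51 against 1.07), and a higher one in complex V (0.87 against 0.79). By adjusted p, 11 of 14 assembly factors of complex I, 4 of 4 of complex II, 4 of 6 of complex III, 18 of 23 of complex IV and 3 of 3 of complex V were higher, beside the 34.8% of all tested genes. The plot of pathway lists shows how the lists spread.

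**Figure D4:**
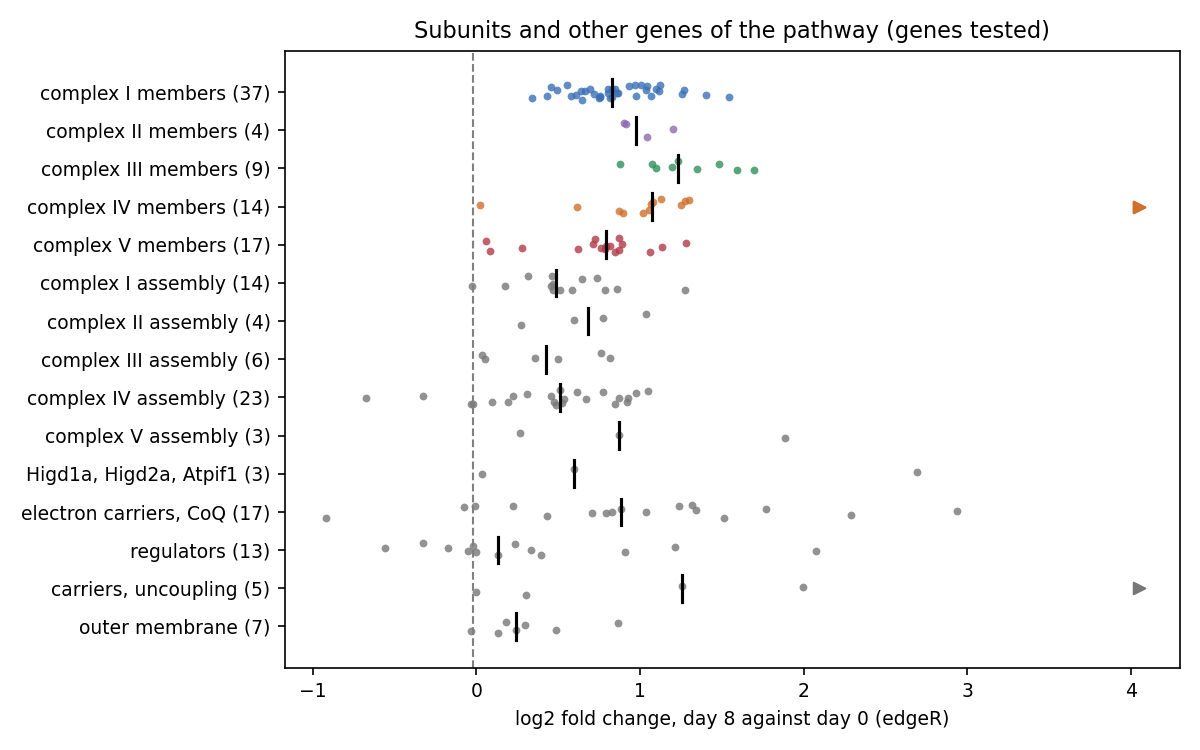
The log2 fold change from day 0 to day 8 (edgeR, horizontal axis) of each tested gene, with the 5 complexes above and the pathway lists below; bars are medians, numbers of genes stand in brackets, and the dashed line is the median of all genes. Triangles mark genes beyond the axis, Cox8b and Cox7a1 in complex IV and Ucp3 among the carriers, and the assembly lists of complexes I to IV have medians left of those of their subunits.

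Among assembly factors, those above 2-fold over the whole process were Foxred1 for complex I (1.28), Sdhaf1 for complex II (1.04), Cox14 for complex IV (1.05) and Atpaf2 for complex V (1.88). Lower were Lrpprc, which stabilises mitochondrial mRNAs (-0.68, SE 0.05, edgeR adjusted p = 1.66e-09), and Fastkd2, a mitochondrial RNA-binding protein (-0.32, SE 0.08, adjusted p = 0.00238). Of the 3 genes of supercomplex and inhibitor factors, Higd1a rose by 2.69 and Higd2a by 0.60, while Atpif1, the inhibitor of ATP synthase, had 0.04 (edgeR adjusted p = 0.569). Higd1a had 6.06, 6.47 and 7.0 FPKM at day 0, 16.4, 19.5 and 21.7 FPKM at day 4 and 35.8, 37.0 and 43.8 FPKM at day 8, with no overlap between days.

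Of 17 genes for electron carriers and coenzyme Q, 14 were higher and 1 was lower over the whole process, where 34.8% of all tested genes were higher and 36.2% lower, with a median of 0.88. Cycs, the cytochrome c that links complexes III and IV, had 21.8, 23.6 and 20.1 FPKM at day 0, 61.7, 67.7 and 82.7 FPKM at day 4 and 94.2, 102 and 99.9 FPKM at day 8. Its 3 days did not overlap, and its whole-process change was 2.29 (SE 0.09, edgeR adjusted p = 1.21e-12), above that of any common subunit. The electron transfer flavoproteins, which bring electrons from fatty acid oxidation, rose too, Etfa by 1.04, Etfb by 1.77 and Etfdh by 1.52. Of the coenzyme Q genes, Adck3 rose by 2.94, Coq5 by 1.34 and Coq9 by 1.24. Ndufab1, the acyl carrier protein that is also a complex I subunit but is not caught by the symbol rule, rose by 1.32. Gpd2, the mitochondrial glycerol phosphate dehydrogenase, fell by 0.92 on the log2 scale (SE 0.06, edgeR adjusted p = 4.63e-10).

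Of the 13 tested regulators, 6 were higher and 3 lower over the whole process, with a median of 0.13. These counts lie near the 34.8% higher and 36.2% lower of all tested genes. Ppargc1b, a coactivator of mitochondrial genes, had 0.61, 0.94 and 0.81 FPKM at day 0, 2.63, 2.94 and 3.42 at day 4 and 2.81, 3.24 and 3.14 at day 8, a change of 2.08 (SE 0.15, edgeR adjusted p = 3.06e-09). Esrra, the nuclear receptor ERR alpha, rose by 1.21 (SE 0.07). Ppargc1a, the related coactivator, first fell by 0.59 and then rose by 0.98 on the log2 scale, to a whole-process change of 0.39 (SE 0.07, edgeR adjusted p = 5.84e-05).

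Nrf1, a factor that binds many promoters of the chain, also changed by -0.38 early and 0.33 late, and by -0.05 (edgeR adjusted p = 0.472) over the whole process. Yy1 had -0.21 early, 0.21 late and 0.00 over the whole process. Gabpa (-0.17), its partner Gabpb1 (-0.33) and Pprc1 (-0.56), another coactivator of this family, were lower at day 8 than at day 0. Gabpa shares exon bases with Atp5j on the other strand, 12.7% of those of Atp5j. Tfam, which packs and transcribes mitochondrial DNA, changed by 0.13 (SE 0.08, edgeR adjusted p = 0.142). Tfb1m (0.91), Tfb2m (0.33) and Polrmt (0.24), of the same list, were higher at day 8 than at day 0 by edgeR adjusted p.

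Of the 5 tested carriers and uncoupling proteins, 4 were higher over the whole process, where 34.8% of all tested genes were. Slc25a5, an ADP/ATP carrier, rose by 1.26, with means of 166, 359 and 367 FPKM at days 0, 4 and 8, whereas its paralogue Slc25a4, the heart and muscle carrier, had 516, 466 and 477 FPKM and a change of 0.00 (edgeR adjusted p = 0.985). Ucp2 rose as well, with means of 59.6, 187 and 220 FPKM at days 0, 4 and 8, and Ucp3 rose by 4.85, though only to 0.81 FPKM. The 7 outer membrane genes, read as a mitochondrial set outside the chain, had a median of 0.24, with 6 higher by adjusted p, beside the same 34.8%, and none above 2-fold. Vdac1, the main pore of that membrane, rose by 0.49.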

How the data were processed

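RNA sequencing of 3T3-L1 cells at days 0, 4 and 8 (n = 3 each) was used as deposited. The authors removed poor reads, mapped the rest with HISAT/Bowtie2 and quantified genes with RSEM, and the deposited files give 1 expected count and 1 FPKM value (fragments scaled to transcript length and library size) per gene and sample, with genes at 0 left out. The labels also name CASAVA 1.4 and a BGIseq500 library kit, whereas the methods name an Illumina HiSeq instrument; the genome build, annotation and strand setting are not given in the sources used here. Pooled RNA of each stage was used, so the spread may be technical. Replicate pairs differed by more than counting noise (chi-square per gene 2.40 to 10.7), and no library was a repeat of another.

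Expected counts, of which 29.8% were not whole, were rounded and fitted with edgeR 4.0.16 in R 4.3.3 (TMM factors 0.954 to 1.05, filterByExpr by day, quasi-likelihood test with 1 coefficient per day over 9 samples, common biological coefficient of variation 0.0538). Benjamini-Hochberg adjustment ran over all 13154 genes tested, and calls used adjusted p under 0.05, alone or with a fold above 2. For 26 genes whose deposited symbol had turned into a date, none of them a member, the symbol was restored from the gene ID by the reference names. Isoform shares were computed from FPKM and tested by exact permutation over 1680 assignments of the samples. Ratios of low counts carry 95% exact intervals, and a group at 0 was set to a floor of 3 counts per library. The totals of 18216114 to 20452144 counts set the limit of detection, and intervals and floors cover counting error only.

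The authors' FPKM values served for levels and, in limma 3.58.1, as an alternative with pseudocounts of 1 and 0.1. Other alternatives were RLE, upper-quartile and library-size scaling, DESeq2 1.42.0, no filter or at least 10 counts in every sample, an adjusted p under 0.001, a replicate block, only the samples of both days, and leaving out each sample. The stricter subunit list was a further setting, read from the main fit. The edgeR step was tested on simulated data for the early phase: all 200 changed genes of 13154 were recovered and 12 unchanged genes were called. The changed genes were drawn from well-expressed genes only, and every gene was given the common coefficient of variation. Recovery of low genes, or of genes with a wider spread, was therefore not tested. Named genes are the extremes of each complex in each comparison, all isoform groups, members lower in any comparison, the most abundant member and the core subunits of each complex, pathway genes above 2-fold and main regulators; the remaining named pathway genes were chosen after their values were seen. The members, gene lists and markers were chosen with earlier results of these data known. Transcript stretches of 50 bases and exon overlaps were compared in GENCODE vM21, which may not be the authors' annotation. Values of some genes under this rule are not reported here.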

Additional observations from a re-analysis of the deposited data

How the results depend on the processing

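The 77 members called in the early phase and the 78 called in the whole process kept their direction and their call under all 20 alternatives at the same threshold that tested them, whereas in the late phase 30 of 40 did, and for the difference of the steps 62 of 71 did under 19. The stricter subunit list, counted among these alternatives, reuses the main fit and so could not change a call. Late losses included Atp5k, Uqcrc1, Uqcrc2, Sdhd, Ndufs8 and Atp5f1. Leaving out 1 sample gave 31 to 50 members higher in the late phase and 0 to 1 lower (0 without day 4 replicate 3). At an adjusted p under 0.001, 17 were higher and 0 lower in the late phase and 1 was higher in the step difference; limma gave 2 lower in the late phase with either pseudocount. With at least 10 counts in every sample only 2 were higher above 2-fold in the late phase, since Cox7a1 and Cox8b were then not tested. The whole process had 21 members above 2-fold with library size alone, 19 with limma on log2(FPKM + 1) and 21 on log2(FPKM + 0.1); these settings also moved the median of all genes down, to -0.13 with library size alone. Whole-process medians for complexes I to V were then 0.72, 0.87, 1.12, 0.96 and 0.68 with library size alone, 0.70, 0.86, 1.11, 0.96 and 0.70 with a pseudocount of 1 and 0.72, 0.86, 1.12, 0.96 and 0.70 with 0.1, and complex II had 0.92 with upper-quartile factors. The step difference was higher for 1 member in the stricter subunit list and for 4 with limma on log2(FPKM + 1), where Cox7a1 (1.01) and Cox8b (0.72) turned to a larger late than early rise; both were near 0 FPKM at day 0, where that pseudocount compresses changes. The Cox6a2 share passed as a log2 ratio of counts (span 3.33, adjusted exact permutation p = 0.0457) but not as a share of summed counts (span 2.18 percentage points, p = 0.0514), as in FPKM, or with the replicate block (p = 0.178), and leaving out 1 sample gave spans of 1.66 to 1.75 percentage points, with adjusted p from 0.0171 to 0.0571.

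With the replicate number as a block, the spans of the shares stayed at 10.2 for Cox7a1, 1.56 for Cox8b, 0.773 for Ndufa4l2 and 1.43 for Atp5g1, but for these the exact permutation test within blocks reached only an adjusted p of 0.0556, since it has few assignments. The block changed no count of calls by over 1.5 times (76 higher early, 42 late and 78 over the whole process). Deviations of samples with the same number correlated by 0.0411 on average (-0.0436 to 0.134), against -0.0206 (-0.113 to 0.0885) for different numbers. The same-number values were higher on average but small, and the ranges overlapped. The numbers were not taken to pair the samples in the main fit. The depth of at most 20452144 counts left Cox4i2, Cox6b2 and Cox7b2 untested.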
